A study of Mus musculus with 30 samples.

Results

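The clustered histone genes are the genes whose names begin with Hist1h, Hist2h, Hist3h or Hist4h in the deposited expression table. The table held 47 of them among 18847 protein-coding genes, and all 47 are described here in 30 libraries from 5 sorted populations of the neonatal mouse thymus. They comprised 6 H1, 7 H2A, 15 H2B, 9 H3 and 10 H4 genes. GENCODE M21 annotates 67 protein-coding genes with such names on the GRCm38 genome, and the other 20 were not analysed here. FPKM, the unit throughout, is fragments counted per length of transcript and per depth of the library.

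The mice were of the B6.SJL strain and of mixed sex, were injected on postnatal day 1 and gave cells on postnatal day 3. Trap mice received Aflibercept, a decoy receptor that binds VEGF and is also named VEGF-Trap, whereas control mice received an hFC antibody. Each population was represented by 4 Trap and 2 control libraries. All sorted cells lacked CD3, CD4, CD8, CD45 and TER119, so that lymphoid, other haematopoietic and erythroid cells were gated out. Endothelial cells (Endo) were EpCAM-negative and CD31+. CD146+ mesenchymal cells (CD146) and CD140a+ mesenchymal cells (CD140a) were negative for EpCAM and CD31. Cortical thymic epithelial cells (cTEC) were EpCAM+ Ly51+ and medullary ones (mTEC) were EpCAM+ with low or no Ly51. The labels do not say whether libraries of a group came from separate animals or pools, so p-values measure the spread between these libraries, which may be technical.

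Histones H2A, H2B, H3 and H4 form the protein core that DNA wraps around in the nucleosome, and H1 binds the linker DNA between nucleosomes. Dividing cells copy their chromatin in S phase, and most clustered histone genes are transcribed mainly then. Their mRNAs typically end in a conserved stem-loop in place of a poly(A) tail, and the stem-loop binding protein, encoded by Slbp, holds that loop through processing, translation and decay.

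The stem-loop is shown because it is the feature that most of these genes share and that was not used to choose them. A match to the stem-loop consensus was present in 36 of the 47 members' GENCODE transcript models. Among protein-coding genes outside the family, 16 of 20914 with an annotated stretch after the stop codon held one, or 0.077%. The most frequent form was shared by 19 members of the H1, H2A, H2B and H3 classes. Another form was found in 6 members, among them Hist1h2bb and Hist1h1t, and 5 H4 genes shared a form with a different stem. The 3 forms are shown with the 16 matched bases in capitals and 5 flanking bases on each side, on the transcript strand of chromosome 13 genes, from GENCODE M21.
Hist1h2bj: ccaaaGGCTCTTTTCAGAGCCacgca
Hist1h2bb: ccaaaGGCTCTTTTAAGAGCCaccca
Hist1h1t: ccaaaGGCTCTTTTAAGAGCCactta
Hist1h4d: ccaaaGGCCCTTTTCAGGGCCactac
No match was found in 11 members. Of these, 5 (Hist1h1b, Hist1h2ak, Hist1h2bn, Hist1h3i and Hist1h4k) have a model that stops at the stop codon, so that no such sequence could be read. The other 6 were Hist1h1a, Hist1h2bc, Hist1h2bp, Hist1h2bq, Hist1h2br and Hist2h2be.

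Promoter windows, from 250 bases before to 50 bases after the RefSeq start (GRCm38.p6), were found for 42 members. The CCAAT box, searched as CCAAT on both strands, was in 36 of the 42 (85.7%), against 37.4% of all 32851 promoters. It was present in each of the 33 windows of H1, H2A, H2B and H3 genes and in 3 of 9 windows of H4 genes. The letters TATAAA on the sense strand were in 21 of the 42 windows and in 8.32% of all promoters. The octamer ATTTGCAT, on either strand, was in 5 of 7 H2A and 5 of 13 H2B windows and in no H1, H3 or H4 window, against 1.74% of all promoters. Windows of neighbours transcribed away from each other overlap, as for Hist1h2ae and Hist1h2bg and for Hist1h2ad and Hist1h2bf. The same CCAAT or octamer can thus count for both genes. The 150 bases before the starts of Hist1h2bb and Hist1h2bj are shown because these H2B genes had the 2 largest decreases with Trap in Endo, with CCAAT on either strand, TATAAA and ATTTGCAT in capitals. The first lies at chr13:23746584-23746733 and the second at chr13:22043048-22043197, both on the plus strand.
Hist1h2bb: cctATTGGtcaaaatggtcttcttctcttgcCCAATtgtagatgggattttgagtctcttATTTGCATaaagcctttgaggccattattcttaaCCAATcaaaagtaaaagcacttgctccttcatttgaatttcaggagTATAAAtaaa
Hist1h2bj: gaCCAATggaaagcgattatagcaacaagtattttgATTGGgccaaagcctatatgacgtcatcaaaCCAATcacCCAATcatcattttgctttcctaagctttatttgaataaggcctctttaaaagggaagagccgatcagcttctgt
The Hist1h2bb window held all 3 motifs. The Hist1h2bj window held the CCAAT box alone of the 3.

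Copies of one class are nearly the same sequence, which limits what a value of 1 gene means. A member was counted as near-identical when its coding sequence matched that of another clustered histone gene at 97% or more. It was also counted when its transcript model shared any run of 150 bases, the read length, with a transcript of any other gene, histone or not. By that rule 37 of 47 members counted: 1 of 6 H1 genes, 6 of 7 H2A genes, 13 of 15 H2B genes, 9 of 9 H3 genes and 8 of 10 H4 genes. Hist1h2bq and Hist1h2br have identical coding sequences. Hist1h1e and Hist1h2be overlap in the annotation on the same strand, so reads there could be assigned to either. Hist3h2a likewise overlaps Trim17, which is not a histone gene, on the same strand. Hist1h1e and Hist3h2a met the rule through shared runs, with closest coding identities of 83.9% and 89.8%. How reads that fit several copies were counted is not given in the sources used here. Members without such a copy were 10, namely Hist1h1a, Hist1h1b, Hist1h1c, Hist1h1d, Hist1h1t, Hist1h4d, Hist2h2ac, Hist2h2be, Hist2h4 and Hist3h2ba. The chromosome 13 cluster holds 40 members between positions 21722044 and 23764406 (GRCm38), chromosome 3 holds 4, chromosome 11 holds 2 and chromosome 6 holds 1.

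The sorted populations carried their own markers. Summed FPKM of 5 endothelial genes (Pecam1, Cdh5, Kdr, Flt1 and Tie1) was 1153 to 1282 in Endo libraries, against at most 10.4 elsewhere, and that of 5 fibroblast genes was 2967 to 4302 in CD140a, against at most 223 elsewhere. The sum of 5 genes of pericytes and smooth muscle was 4596 to 6013 in CD146, but it was also 502 to 757 in mTEC and 165 to 207 in Endo. One library stood apart: Endo Trap replicate 2 had 39.8 FPKM summed over the epithelial genes Epcam, Foxn1 and Krt8, against 1.94 to 9.98 in the other 5 Endo libraries. Psmb11, Prss16, Ly75 and Enpep summed to 431.5 to 614 FPKM in cTEC, against at most 35.5 elsewhere. Aire, Fezf2, Krt5 and Krt14 summed to 600 to 867 FPKM in mTEC, but also to 75.9 to 115.5 in cTEC. Elsewhere they reached at most 8.3 FPKM. Of 13 thymocyte genes, the summed level was 70.2 to 173 in cTEC and at most 16.9 in the other populations. The FPKM of all genes summed to between 184608 and 241993 per library, and the number of reads behind a value is unknown. Low values of some histone genes fell on steps, as in Hist1h4h, with 6 libraries at 0.19 to 0.25 FPKM and the next at 0.44. For others, such as Hist1h4f (0.28 to 0.39 FPKM, then 0.41), no clear step was seen. Values near the lowest of a gene may thus rest on few fragments.

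All 47 members together made up between 0.028% and 0.131% of the FPKM in a library. Levels were uneven among members. Hist1h2bc, an H2B gene, gave 14.6% of all member FPKM, and the 7 highest members gave 51.0%: Hist1h2bc, Hist1h2bn, Hist1h2bf, Hist1h2bg, Hist1h4d, Hist1h2bb and Hist1h1c. At the other end, Hist2h2ac was listed at 0 in 26 of 30 libraries, and Hist1h2bq and Hist3h2ba in 21 each. Between 21 and 45 members were above 0 in a library, with the fewest in Endo (21 to 38) and the most in cTEC (37 to 45) and mTEC (38 to 45). Within Endo they numbered 30, 21, 31 and 27 in the Trap libraries and 38 and 35 in the controls, without overlap. The number of all genes above 0 is not given here, so whether this is particular to the members cannot be told. Members with a stem-loop match had mean levels with a median of 1.20 FPKM and a range of 0.086 to 11.2 FPKM, and the 6 whose sequence after the stop codon held no match had a median of 1.74 FPKM and a range of 0.338 to 21.7 FPKM. The 5 in which it could not be read had a median of 4.13 FPKM.

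**Figure D1:**
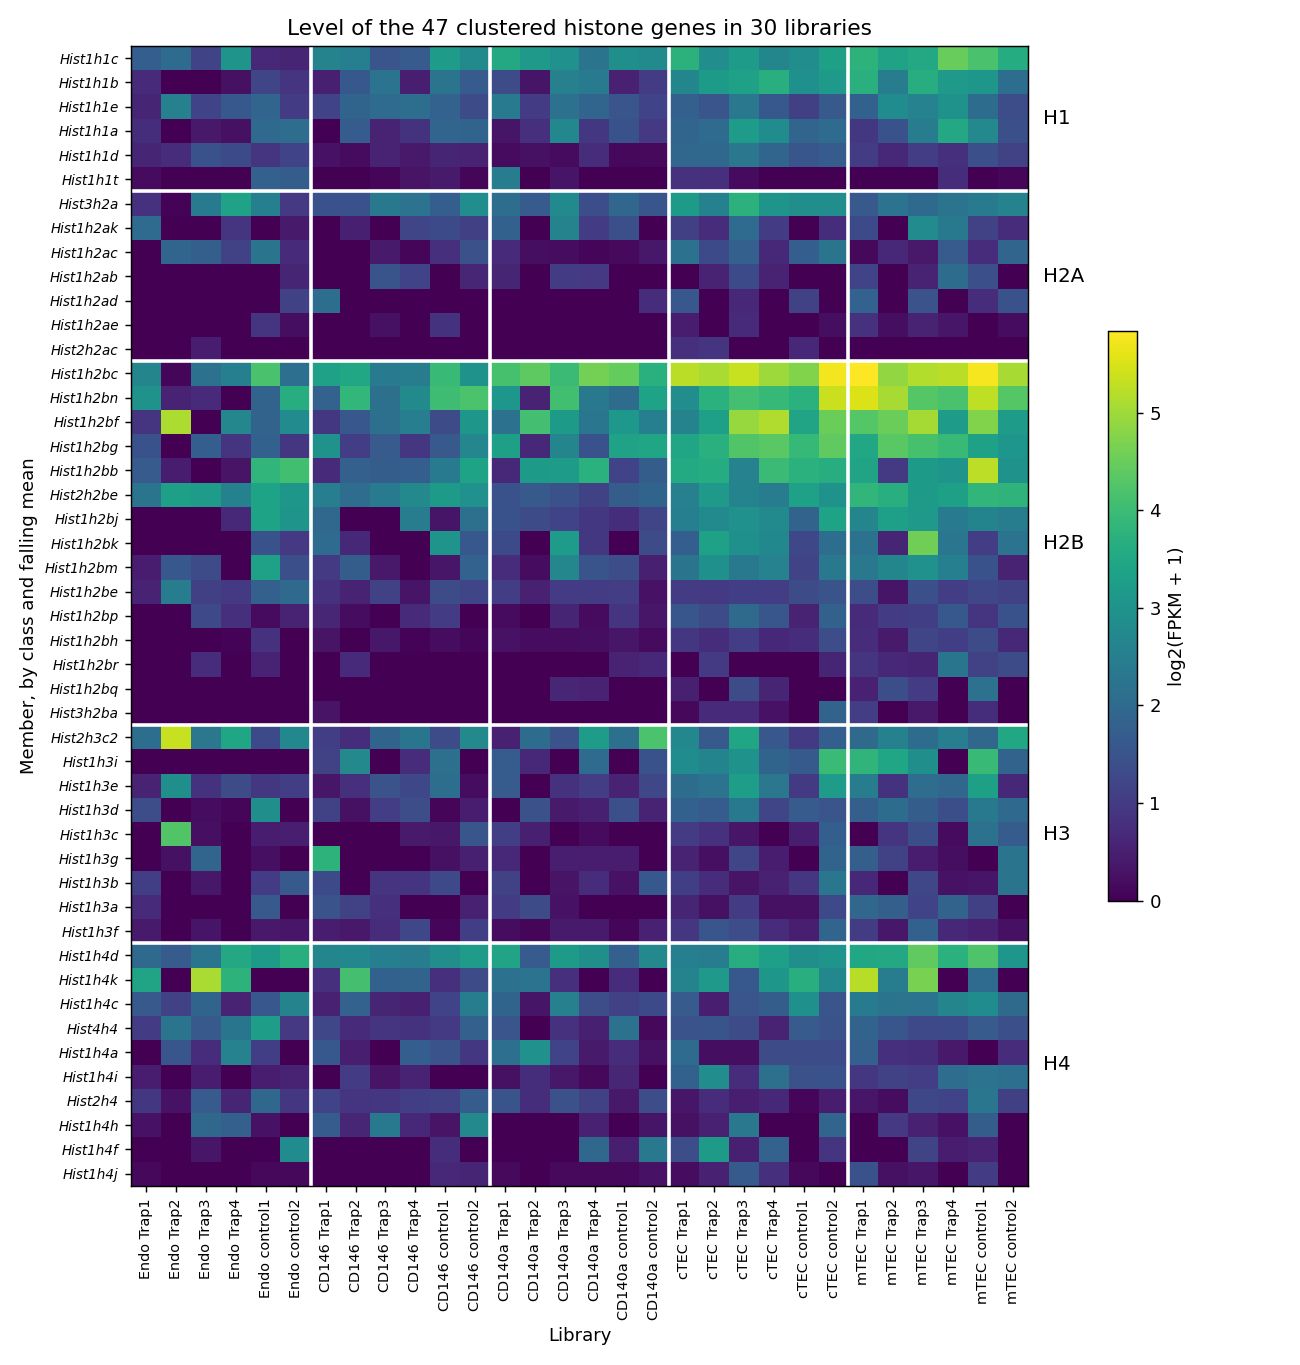
Level of each of the 47 clustered histone genes (rows, grouped by class and ordered by falling mean) in each of the 30 libraries (columns, Trap before control within each population), as log2(FPKM + 1) in colour. H2B genes at the top of their block are brightest in cTEC and mTEC, and single bright cells, such as Hist2h3c2 at 39.5 FPKM in Endo Trap 2, mark values that rest on 1 library.

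Neighbouring genes that are transcribed away from each other differed widely in level. Of 6 such pairs of members with starts under 1000 bases apart, 5 joined an H2A gene to an H2B gene, and in each of these the H2B gene had the higher FPKM in nearly every library. Hist1h2bc averaged 21.7 FPKM and its neighbour Hist1h2ac, 251 bases away, 1.19 FPKM over the 30 libraries, and Hist1h2bc was higher in 29 of 30. Hist1h2bn averaged 13.1 FPKM against 1.31 FPKM for Hist1h2ak, and was higher in 29 libraries. Hist1h2bf averaged 11.2 FPKM against 0.525 FPKM for Hist1h2ad, higher in 28, and Hist1h2bg averaged 7.80 FPKM against 0.167 FPKM for Hist1h2ae, higher in 29. On chromosome 3, Hist2h2be averaged 6.49 FPKM against 0.086 FPKM for Hist2h2ac and was higher in all 30 libraries. The H2A partners have near-identical copies except Hist2h2ac, whose closest copy has a coding identity of 96.4%. The remaining pair, Hist1h2bh and the H3 gene Hist1h3f, had means of 0.461 and 0.659 FPKM.

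Epithelial libraries had the highest summed levels. The sum over the 47 members was 248.5 ± 57.1 FPKM in mTEC and 212 ± 46.2 FPKM in cTEC, against 98.0 ± 16.6 FPKM in CD140a, 100.1 ± 29.5 FPKM in Endo and 86.4 ± 23.3 FPKM in CD146 (SD, n = 6 libraries each, both treatments). The lowest epithelial library, at 159 FPKM, lay above the highest library of the other 3 populations, at 135 FPKM. Within each side the ranges overlapped: mTEC spanned 174 to 313 FPKM and cTEC 159 to 278 FPKM. H2B genes carried most of this difference, with 146 ± 35.6 FPKM in mTEC and 124.6 ± 34.4 FPKM in cTEC, against 40.03 ± 23.0 FPKM in Endo. They made up 58.8% of the member sum in both epithelial populations, 53.2% in CD140a, 46.4% in CD146 and 39.98% in Endo. In bulk samples, a change in the share of cells that express a gene and a change in RNA per cell cannot be told apart.

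**Figure D2:**
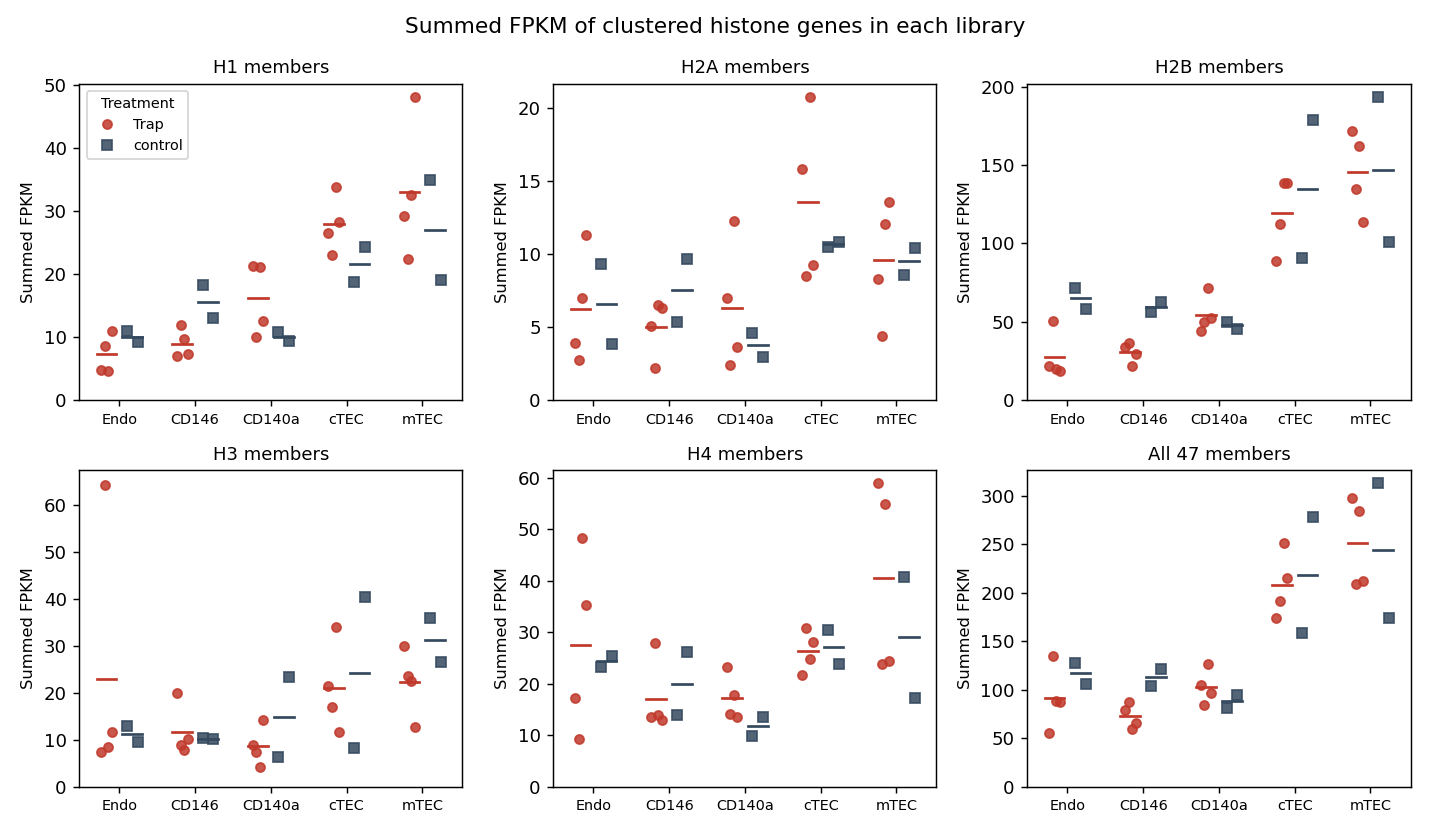
Summed FPKM of the members of each class and of all 47 (y axis, from 0) in each library of the 5 populations (x axis); circles are Trap libraries, squares are control libraries and bars are group means. H2B sums of Trap libraries lie below those of control libraries in Endo and CD146 (18.6 to 50.2 against 58.4 to 71.6 FPKM and 21.9 to 36.6 against 55.9 to 62.7 FPKM), and the other populations overlap.

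Each population was then set against the mean of the other 4 with limma on log2(FPKM + 1), with p-values adjusted over the 16425 genes tested; a gene was called at an adjusted p under 0.05. Log2 changes are given with their standard error after ±. Of the 47 members 45 passed the filter of 1 FPKM in at least 2 libraries, and Hist1h2ae and Hist2h2ac did not. In cTEC, 15 of 45 members were higher (33.3%, with 21.2% of all genes) and 1 was lower (24.5% of all genes). In mTEC, 17 were higher (37.8%, near the 38.4% of all genes) and 0 lower (17.5% of all genes). In Endo, 3 were higher (17.7% of all genes) and 9 lower (34.5% of all genes). In CD146, 0 were higher (18.2% of all genes) and 8 lower (25% of all genes), and in CD140a 0 were higher (17.1% of all genes) and 7 lower (33% of all genes). In both directions together, 16 members were called in cTEC (45.8% of all genes), 17 in mTEC (55.8%), 12 in Endo (52.1%), 8 in CD146 (43.2%) and 7 in CD140a (50.1%). The share of members called was thus above the background for higher genes in cTEC and near or below it elsewhere. The thymocyte sum was highest in cTEC, and its part in the cTEC values was not tested. With quantile normalization the split was 6 higher and 6 lower in Endo and 11 higher and 2 lower in mTEC. These counts moved with single libraries. Without cTEC control replicate 2 the cTEC count was 7, and without mTEC control replicate 1 the mTEC count was 9. Without CD146 Trap replicate 3 the CD146 count was 5. The shares of all genes above belong to the main fit, and those of these alternatives are not given here.

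Among the H1 genes, Hist1h1c was highest in mTEC and lowest in Endo, with 13.7 ± 4.62 FPKM in mTEC, 7.92 ± 2.58 FPKM in cTEC, 6.91 ± 2.23 FPKM in CD140a, 4.72 ± 2.44 FPKM in CD146 and 2.49 ± 2.48 FPKM in Endo (SD, n = 6). It rose by 1.37 ± 0.23 in mTEC and was lower in Endo, where its log2 change was -1.79 ± 0.23 (limma, adjusted p 1.58e-05 and 3.45e-07). Hist1h1b averaged 8.17 ± 2.22 FPKM in cTEC and 7.80 ± 3.53 FPKM in mTEC, against 0.505 ± 0.538 FPKM in Endo. Its log2 changes were 1.54 ± 0.29 in cTEC (limma, adjusted p 7.60e-05) and -1.56 ± 0.29 in Endo (adjusted p 5.23e-05), each against the other 4 populations. Neither Hist1h1b nor Hist1h1c has a near-identical copy. Hist1h1d was above all other libraries in cTEC, with a mean of 2.77 FPKM against 0.680 FPKM elsewhere and a log2 change of 1.12 ± 0.13 (limma, adjusted p 6.88e-08).

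In the H2B class, Hist1h2bc averaged 40.4 ± 11.3 FPKM in mTEC and 36.3 ± 9.12 FPKM in cTEC, against 18.02 ± 4.30 FPKM in CD140a, 8.22 ± 3.80 FPKM in CD146 and 5.65 ± 5.79 FPKM in Endo. Its ranges did not overlap between the epithelial populations, where the lowest library had 25.5 FPKM, and the other 3, where the highest had 23.7 FPKM. Hist1h2bn had its highest level in mTEC, at 28.4 ± 11.99 FPKM against 9.23 FPKM elsewhere, a log2 change of 1.78 ± 0.44 (limma, adjusted p 0.00121). Hist1h2bg was highest in cTEC, at 15.6 ± 4.23 FPKM, and lowest in Endo, at 1.402 ± 0.975 FPKM. Its log2 change was 1.70 ± 0.33 in cTEC and -1.87 ± 0.33 in Endo (limma, adjusted p 9.93e-05 and 2.50e-05). In CD146, Hist1h2bc (-1.12 ± 0.30, adjusted p 0.00384) and Hist1h2bf (-1.31 ± 0.53, adjusted p 0.0472) had the largest log2 decreases by limma, and the second call was lost in 19 of 36 alternative settings.

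Hist2h2be, which encodes the H2B variant H2BE described in mouse olfactory neurons, showed a different order. It has no near-identical copy and was at 1.20 FPKM or more in all 30 libraries. It averaged 11.4 ± 2.31 FPKM in mTEC, 7.16 ± 2.32 FPKM in Endo, 6.43 ± 1.87 FPKM in cTEC, 5.49 ± 1.74 FPKM in CD146 and 1.96 ± 0.515 FPKM in CD140a (SD, n = 6). The Endo, cTEC and CD146 levels lay within 1 SD of each neighbour among these 3. All 6 CD140a libraries lay below every other library, and the log2 change in CD140a was -1.49 ± 0.15 (limma, adjusted p 5.03e-09). Hist1h2bj was also lower in CD140a (-0.95 ± 0.30, limma, adjusted p 0.0108).

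Hist1h2bf was high in both epithelial populations, at 19.2 ± 9.61 FPKM in mTEC and 18.2 ± 12.1 FPKM in cTEC, and its Endo mean of 8.10 ± 12.7 FPKM rested on Trap replicate 2, at 33.6 FPKM, with 0 to 6.03 FPKM in the other 5 libraries.

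Of 5 H2A, 9 H3 and 10 H4 genes tested, 2, 3 and 1 were called higher in cTEC (21.2% of all genes). In mTEC 0, 3 and 3 were called higher (38.4% of all genes). Hist3h2a, which overlaps Trim17 in the annotation, was the highest H2A gene. Its mean was 7.54 FPKM in cTEC against 3.32 FPKM elsewhere (log2 change 1.02 ± 0.33, limma, adjusted p 0.0143). Hist1h2ak averaged between 0.718 FPKM in Endo and 2.25 FPKM in mTEC, and Hist1h2ac between 0.233 FPKM in CD140a and 2.36 FPKM in cTEC. Hist1h3i was listed at 0 in all 6 Endo libraries and averaged 7.78 FPKM in mTEC and 6.30 FPKM in cTEC. Hist2h3c2 had its highest mean in Endo, at 10.6 ± 14.5 FPKM, with a median of 4.77 FPKM, and Hist1h3e had means of 0.985 FPKM in CD140a to 4.76 FPKM in cTEC. Hist1h4d, an H4 gene without a near-identical copy, averaged 13.04 FPKM in mTEC against 6.33 FPKM elsewhere (log2 change 0.91 ± 0.26, limma, adjusted p 0.00386). Hist1h4c had means between 1.62 FPKM in CD146 and 4.38 FPKM in mTEC, and Hist1h4k spanned 0 to 36.3 FPKM among mTEC libraries alone. Hist2h4 was the 1 member that was lower in cTEC, at 0.392 FPKM against 1.28 FPKM (-0.75 ± 0.22, adjusted p 0.00611). In Endo, Hist4h4 (0.69 ± 0.29, adjusted p 0.0489) and Hist1h1t (0.68 ± 0.23, adjusted p 0.0157) had the largest increases. The Hist4h4 call was lost in 27 of 37 alternative settings, and Hist1h1t was above 2 FPKM in the 2 Endo control libraries and at most 0.12 FPKM in the 4 Endo Trap libraries.

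With Trap, 3 members fell in Endo and none was called in another population. The 3 were the H2B genes Hist1h2bb and Hist1h2bj and the H1 gene Hist1h1t, which encodes a linker histone known for its expression in the testis. They were 3 of 45 members tested, or 6.67%, where 1.42% of all genes were called lower in Endo, and 0 members were called higher (0.323% of all genes). Hist1h2bb had 2.22, 0.39, 0 and 0.23 FPKM in the 4 Endo Trap libraries, against 13.3 and 15.9 FPKM in the 2 Endo control libraries. The Trap values lay far below both controls, with a log2 change of -3.34 ± 0.71 (limma, adjusted p 0.0142). Hist1h2bj had 0, 0, 0 and 0.59 FPKM in the Trap libraries, against 9.43 and 7.07 FPKM in the controls, and its log2 change was -3.03 ± 0.54 (limma, adjusted p 0.00472). Hist1h1t had 0.12, 0, 0 and 0 FPKM in the Trap libraries, against 2.46 and 2.29 FPKM in the controls, and its log2 change was -1.71 ± 0.41 (limma, adjusted p 0.0296). For each of the 3, every Trap library lay below both controls, and the nearest was Hist1h2bb in Trap replicate 1 at 2.22 FPKM.

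The 3 calls rested on few control libraries and on a spread estimated over all 30 libraries. Without Endo control replicate 1, 0 members were called, and the log2 changes were -3.46 for Hist1h2bb, -2.85 for Hist1h2bj and -1.68 for Hist1h1t (limma, adjusted p 0.0884, 0.0675 and 0.177). Without Endo Trap replicate 2, the 3 remained called, and the H4 gene Hist1h4k was called higher (limma, adjusted p 0.049). A fit on the 6 Endo libraries alone called 0 members and 0 of all genes. When members with near-identical coding sequences were summed before the test, Hist1h2bb and Hist1h1t, which have no such partner in the table, were called lower. Hist1h2bj was then part of a sum of 9 H2B genes that includes Hist1h2bn, which was not called (-1.24, adjusted p 0.105). Hist1h1t has no near-identical copy, and 16 of its 30 values were listed at 0. Fewer members were above 0 in each Endo Trap library (21 to 31) than in the Endo controls (35 and 38). The part of this lower detection in the 3 calls was not tested, and detection over all genes is not given here.

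**Figure D3:**
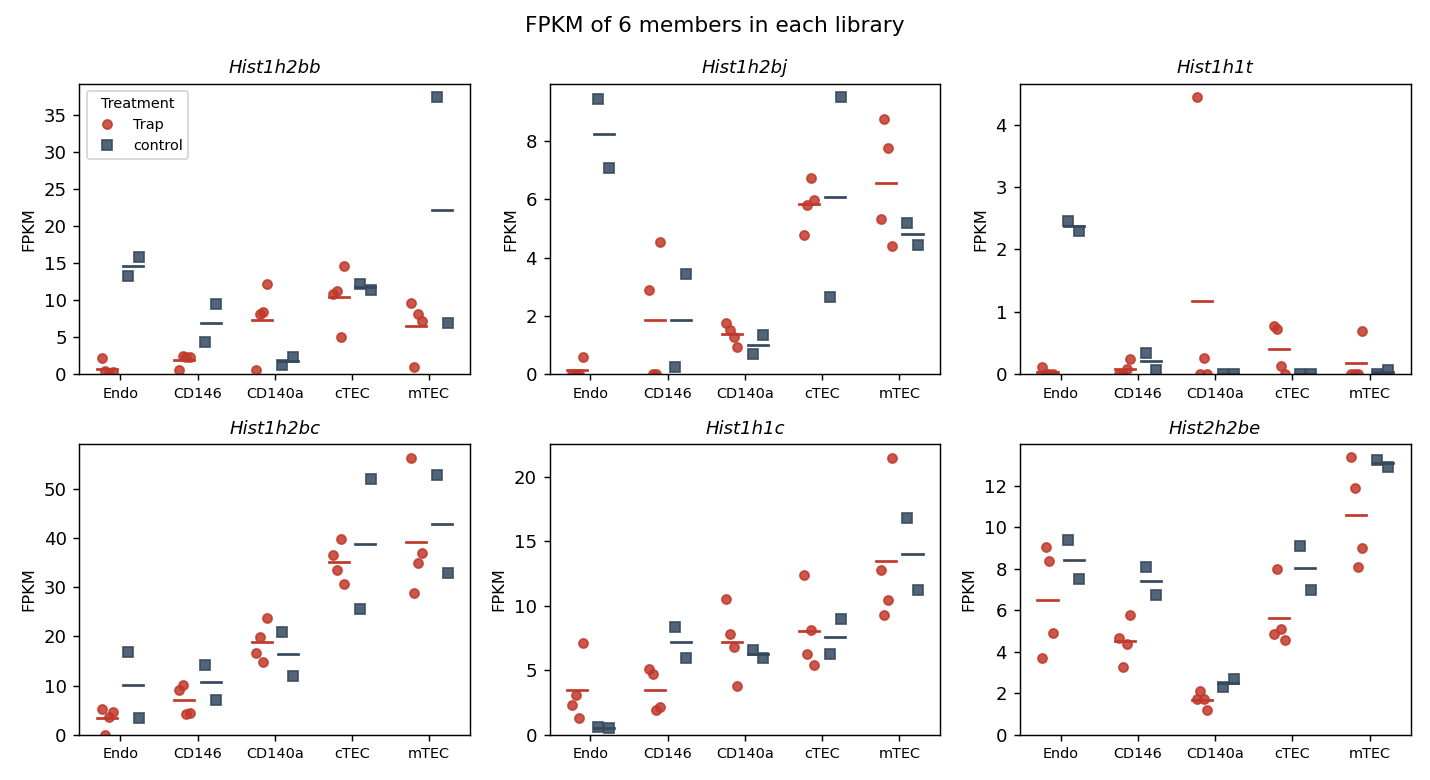
FPKM (y axis, from 0) of 6 members in each library of the 5 populations (x axis); circles are Trap libraries, squares are control libraries and bars are group means. Hist1h2bb, Hist1h2bj and Hist1h1t lie below both Endo controls in all 4 Endo Trap libraries, at most at 2.22, 0.59 and 0.12 FPKM, whereas Hist1h1c lies above both Endo controls in all 4 Endo Trap libraries.

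As a sum, the H2B class was lower in Endo with Trap. Its sum was 21.8, 50.2, 19.7 and 18.6 FPKM in the 4 Trap libraries, against 71.6 and 58.4 FPKM in the controls, a ratio of 0.424. The highest Trap value came from replicate 2, in which Hist1h2bf alone had 33.6 FPKM against 0 to 5.52 FPKM in the other Trap libraries. Without that replicate the log2 ratio of the H2B sums was -1.70, against -1.24 with all libraries. Class sums were not tested. The 2 H2B genes without a near-identical copy, Hist2h2be and Hist3h2ba, gave a log2 ratio of -0.37. The other 13 H2B genes have near-identical copies.

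The sums of the other classes overlapped between Trap and control in Endo. The H1 sums were 4.62 to 11.03 FPKM with Trap and 9.19 to 10.9 FPKM in controls. Within H1 the genes went different ways. Hist1h1c had 2.33, 3.09, 1.30 and 7.12 FPKM with Trap and 0.58 and 0.52 FPKM in controls, so all 4 Trap values were higher, but it was not called (log2 change 1.37 ± 0.42, limma, adjusted p 0.0951). It was called with a pseudocount of 0.1 (adjusted p 0.0216) and on TPM values (0.0254). Hist1h1a had 0.71, 0, 0.31 and 0.19 FPKM with Trap and 2.97 and 3.22 FPKM in controls (-1.68 ± 0.60, limma, adjusted p 0.158). The H4 sums overlapped, at 9.36 to 48.3 FPKM with Trap and 23.2 to 25.5 FPKM in controls. Much of the H4 spread came from Hist1h4k, which had 9.54, 0, 33.3 and 12.6 FPKM with Trap and was listed at 0 in both controls (limma, adjusted p 0.192). The H3 sum was 64.3 FPKM in Trap replicate 2 and 7.44 to 11.6 FPKM in the other Trap libraries, against 9.45 to 12.95 FPKM in controls. Most of that value came from the H3 genes Hist2h3c2 at 39.5 FPKM and Hist1h3c at 18.1 FPKM. The log2 ratio of H3 sums was 1.03 with that library and -0.29 without it. The sum of all 47 members was 55.2, 135, 88.05 and 87.9 FPKM in the 4 Trap libraries, against 128 and 106 FPKM in controls. The overlap rested on Trap replicate 2: the other 3 Trap libraries lay below both controls.

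Without regard to the test, 6 of 45 tested members had all Endo Trap libraries below both controls (13.3%, with 9.48% of all genes), and 1 had all above (5.36% of all genes). Summed over 13 thymocyte genes the level was 7.41 to 13.6 FPKM in Trap and 9.22 to 11.6 FPKM in control libraries, and over 6 erythroid genes it was 72.7 to 131 FPKM against 10.6 and 91.9 FPKM. The erythroid sum was low in 1 control library. Over 5 fibroblast genes, the markers of CD140a, the sum was 9.34, 3.70, 7.63 and 7.93 FPKM in Endo Trap libraries and 3.19 and 0.96 FPKM in Endo controls, without overlap, and the part of these cells in the histone values was not tested.

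The Trap change of Hist1h2bj in Endo also differed from its mean Trap change in the other 4 populations, by -3.18 ± 0.61 (SE of the log2 difference; limma, adjusted p 0.0188). It was the 1 member called in that test (2.22% of the 45, with 0.231% of all genes called lower), and 0 were called higher (0.0487% of all genes). Hist1h2bj had 1.86 ± 2.25 FPKM with Trap and 1.85 ± 2.24 FPKM in control in CD146, 5.82 ± 0.812 and 6.06 ± 4.85 FPKM in cTEC, 6.56 ± 2.04 and 4.81 ± 0.516 FPKM in mTEC, and 1.37 ± 0.350 and 1.02 ± 0.460 FPKM in CD140a (SD, n = 4 and 2). The difference was not called without Endo control replicate 1 (adjusted p 0.119), with a pseudocount of 0.1 (0.0619) or on TPM values (0.0558). It was also not called with 1 weight per population (0.287), and 0 copy groups were called when near-identical copies were summed. For Hist1h2bb the difference was -2.87 ± 0.79 (limma, adjusted p 0.110) and for Hist1h1t -1.998 ± 0.46 (adjusted p 0.0657). The count rose to 3 without CD140a Trap replicate 1, and to 2 without CD140a Trap replicate 2, without CD140a Trap replicate 4 or without Endo control replicate 2.

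**Figure D4:**
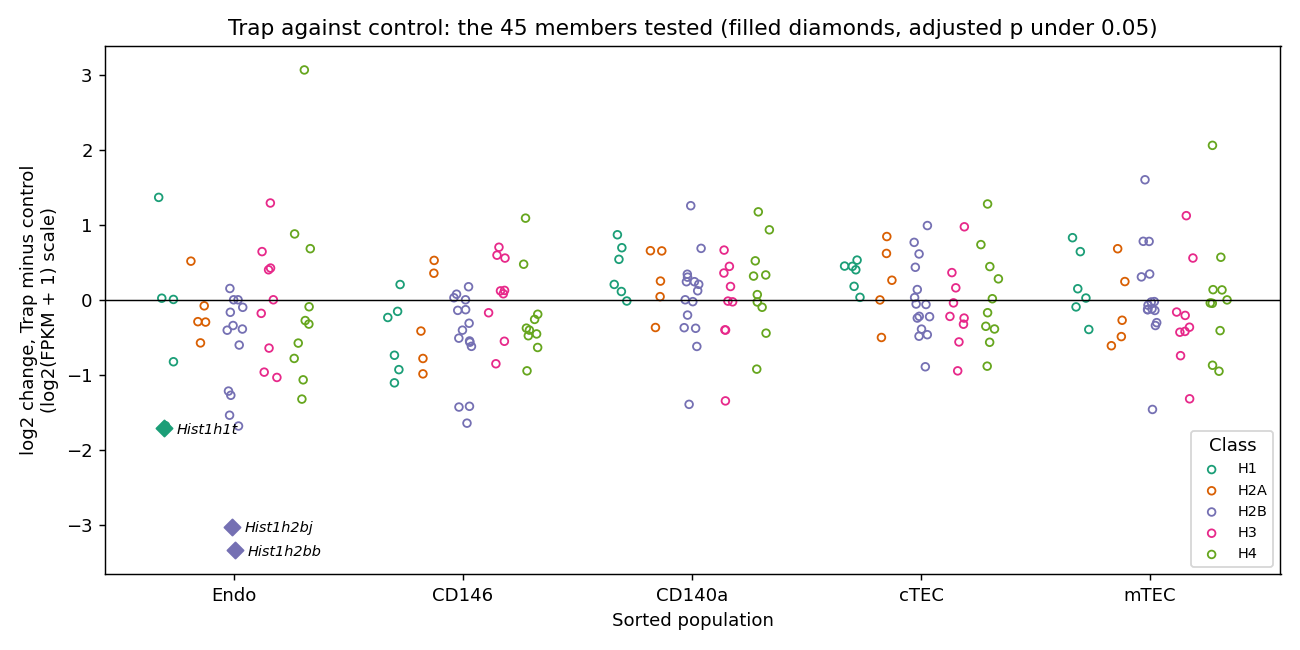
Log2 change with Trap (Trap minus control on the log2(FPKM + 1) scale, y axis) of the 45 members tested, by population (x axis) and class (colour); filled diamonds mark adjusted p under 0.05. The filled points are Hist1h2bb, Hist1h2bj and Hist1h1t in Endo, at -3.34, -3.03 and -1.71.

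In CD146, 0 members were called with Trap by limma (0.0122% of all genes were lower, 0.00609% higher and 0.0183% in either direction). The H2B sum was nevertheless lower in all 4 Trap libraries: it was 33.7, 36.6, 21.9 and 29.5 FPKM with Trap, against 55.9 and 62.7 FPKM in controls, a ratio of 0.513. The sum of all members was 59.9 to 87.6 FPKM with Trap and 104 to 122 FPKM in controls, and the H1 sum was 7.04 to 11.9 FPKM with Trap and 12.98 to 18.3 FPKM in controls. These groups did not overlap, and the H2B ratio kept its direction without any 1 library (log2 ratio -1.06 to -0.83). The 2 H2B genes without a near-identical copy gave a log2 ratio of -0.69. That ratio is nearly of Hist2h2be alone, because Hist3h2ba was above 0 only in CD146 Trap replicate 1, at 0.23 FPKM. Of the 45 tested members, 10 (22.2%) had all Trap libraries below both controls, with 6.84% of all genes, and 0 had all above (5.8% of all genes). The 10 were Hist1h1a, Hist1h1c, Hist1h1d, Hist1h2ac, Hist1h2bb, Hist1h2be, Hist1h2bn, Hist1h4d, Hist1h4j and Hist2h2be.

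The members of smallest p in CD146 were 2 genes without near-identical copies. Hist2h2be had 4.68, 3.27, 4.38 and 5.76 FPKM with Trap, against 8.08 and 6.74 FPKM in controls, a log2 change of -0.62 ± 0.27 (limma, adjusted p 0.963). Hist1h1c had 5.13, 4.73, 1.90 and 2.18 FPKM with Trap, against 8.40 and 5.97 FPKM in controls, a log2 change of -0.93 ± 0.42 (adjusted p 0.963). Neither set of values overlapped, and neither was called. The same gene Hist1h1c lay higher with Trap in Endo. Hist1h2bn had 2.59, 13.5, 3.48 and 5.95 FPKM with Trap and 15.2 and 17.1 FPKM in controls. Levels of 34 S-phase genes moved alongside: their summed FPKM was 210 to 263 with Trap and 291 to 374 in controls. This sum also did not overlap in Endo (147 to 216 FPKM with Trap and 339.6 and 389.6 FPKM in controls) or in cTEC (293 to 307 FPKM and 366 and 373 FPKM). In the same cTEC libraries the thymocyte sum was 109 to 173 FPKM with Trap and 70.2 and 106 FPKM in controls, also without overlap, and its part was not tested. Summed epithelial genes were 1.73 to 3.30 FPKM in CD146 Trap libraries and 0.39 and 0.41 FPKM in CD146 controls, and thymocyte genes 3.27 to 7.44 FPKM and 1.28 and 4.83 FPKM. Summed erythroid genes were 8.82 to 12.1 FPKM with Trap and 9.24 and 30.5 FPKM in controls. The part of these cells in the histone values was not tested.

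In CD140a, cTEC and mTEC the summed levels overlapped between Trap and control libraries. The totals were 83.9 to 127 FPKM with Trap and 81.2 and 94.9 FPKM in controls in CD140a, 174 to 252 FPKM and 159 and 278 FPKM in cTEC, and 209 to 298 FPKM and 174 and 313 FPKM in mTEC. The 2 control libraries of each epithelial population stood well apart, so the direction of the ratio depended on which was kept: in mTEC the log2 ratio of totals was 0.04 with both, 0.53 without control replicate 1 and -0.32 without control replicate 2. In cTEC it was -0.07 with both, -0.42 without control replicate 1 and 0.39 without control replicate 2. One class sum did not overlap, that of H4 in CD140a, with 13.61 to 23.3 FPKM with Trap and 9.95 and 13.6 FPKM in controls, so that the nearest libraries nearly touch.

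No member was called in these 3 populations by limma. Over all genes the share called was 0% in CD140a and 0.00609% in cTEC, and in mTEC 0.0244% were higher, 0.323% lower and 0.347% in either direction. Hist1h2bg in CD140a had 8.96, 0.57, 5.26 and 1.75 FPKM with Trap, against 9.33 and 9.98 FPKM in controls (-1.395 ± 0.58, adjusted p 1), and Hist1h2bb there had 0.58, 8.11, 8.41 and 12.2 FPKM with Trap, against 1.26 and 2.28 FPKM. In cTEC, Hist1h4j had 0.15, 0.45, 2.15 and 0.74 FPKM with Trap, against 0.09 and 0 FPKM in controls (0.74 ± 0.32, adjusted p 1). Hist1h4f had 1.60, 8.10, 0.43 and 2.57 FPKM with Trap, against 0 and 0.87 FPKM in cTEC controls (adjusted p 1). In mTEC, Hist1h2bm had 4.05, 5.40, 6.77 and 4.73 FPKM with Trap, against 1.75 and 0.50 FPKM in controls (1.60 ± 0.61, adjusted p 0.455). Hist1h3a had 2.78, 2.41, 1.24 and 2.63 FPKM with Trap, against 1.16 and 0 FPKM in mTEC controls (1.12 ± 0.45, adjusted p 0.507), whereas the sum of the H3 class, in which it has near-identical copies, was 12.8 to 30.04 FPKM with Trap and 26.5 and 35.9 FPKM in mTEC controls. The mTEC values of both genes and the cTEC values of Hist1h4j did not overlap between groups. In mTEC 3 of 45 members were higher in every Trap library than in both controls (5.06% of all genes) and 4 lower (8.4%). In cTEC 2 were higher (5.66%) and 1 lower (7.87%), and in CD140a 1 was higher (5.14%) and 3 lower (6.79%). These shares of members are near those of all genes.

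Genes that act with the clustered histones changed with Trap in Endo to different degrees. Over all genes 1.42% were called lower and 0.323% higher. Of 34 S-phase genes 14 were lower and 0 higher, with a median log2 change of -0.89, and of 22 mitosis genes 8 were lower and 0 higher, with a median of -1.12; the median over all genes was -0.02 and over the 45 members tested -0.30. Gins1, a subunit of the replicative helicase complex, had 0.18, 0, 0.05 and 0 FPKM with Trap, against 4.26 and 5.88 FPKM in controls (-2.51 ± 0.41, limma, adjusted p 0.00223). Pcna, the sliding clamp of DNA polymerase, had 69.1, 57.1, 69.6 and 52.8 FPKM with Trap, against 127 and 107 FPKM in controls (-0.91 ± 0.15, adjusted p 0.00223). Both genes lay lower in every Trap library. Rrm2, which makes deoxynucleotides (-1.98 ± 0.36), and the single-strand binding subunit gene Rpa3 (-2.36 ± 0.43) also fell. Among mitosis genes Kif11, a spindle motor (-2.23 ± 0.25), Tpx2 (-2.28 ± 0.40), Cenpe (-2.03 ± 0.36) and Bub1 (-1.61 ± 0.34) fell. Without Endo control replicate 1 the counts were 2 and 1 in place of 14 and 8, and without Endo control replicate 2 they were 8 and 5.

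Of 17 genes of histone mRNA processing and transcription, 1 was lower and 1 higher (1.42% and 0.323% of all genes). Slbp, which binds the stem-loop shown above, had 8.06, 3.52, 8.49 and 9.20 FPKM with Trap, against 18.3 and 18.02 FPKM in controls, so that its log2 change was -1.27 ± 0.28 (limma, adjusted p 0.0175). Slbp was also a member of the S-phase list. Lsm10, a subunit of the U7 particle that cuts histone pre-mRNA, had 1.58, 7.14, 4.26 and 3.48 FPKM with Trap, against 0.11 and 0.06 FPKM in controls (2.12 ± 0.55, adjusted p 0.0456). Zfp473 (-0.49 ± 0.27, adjusted p 0.420) and Srrt (-0.34 ± 0.22, adjusted p 0.538) were the next by p and were not called. Npat, the coactivator of histone transcription, had a log2 change of 0.00 ± 0.26. Of 15 histone chaperone genes 1 was lower: Nasp, which carries H3 and H4, averaged 14.8 ± 1.51 FPKM with Trap and 26.6 ± 4.43 FPKM in controls (-0.80 ± 0.14, adjusted p 0.00478). Chaf1a (-0.96 ± 0.28, adjusted p 0.0820), Asf1b (-1.92 ± 0.58, adjusted p 0.0922) and Ssrp1 (-0.67 ± 0.22, adjusted p 0.118) were not called.

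Replication-independent histone genes, which are spread over the genome and make polyadenylated mRNA, gave 0 calls among 10 tested with Trap in Endo. Their median log2 change was -0.33. Over all genes 1.74% were called in either direction, so 0 of 10 is near that share. H2afz averaged 55.4 ± 3.33 FPKM with Trap and 72.5 ± 3.76 FPKM in controls (-0.38 ± 0.26, adjusted p 0.548), H2afy 10.4 ± 2.92 and 14.3 ± 1.43 FPKM (-0.46 ± 0.19, adjusted p 0.231), Cenpa 3.00 ± 0.926 and 5.07 ± 0.948 FPKM (-0.62 ± 0.31, adjusted p 0.345), and H2afv 9.81 ± 4.29 and 12.4 ± 1.99 FPKM (SD, n = 4 and 2). In the other populations 1 S-phase gene was lower in CD146 (0.0122% of all genes) and no further gene of these lists was called. The median S-phase log2 change was -0.58 in CD146, -0.04 in CD140a, -0.29 in cTEC and -0.18 in mTEC.

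**Figure D5:**
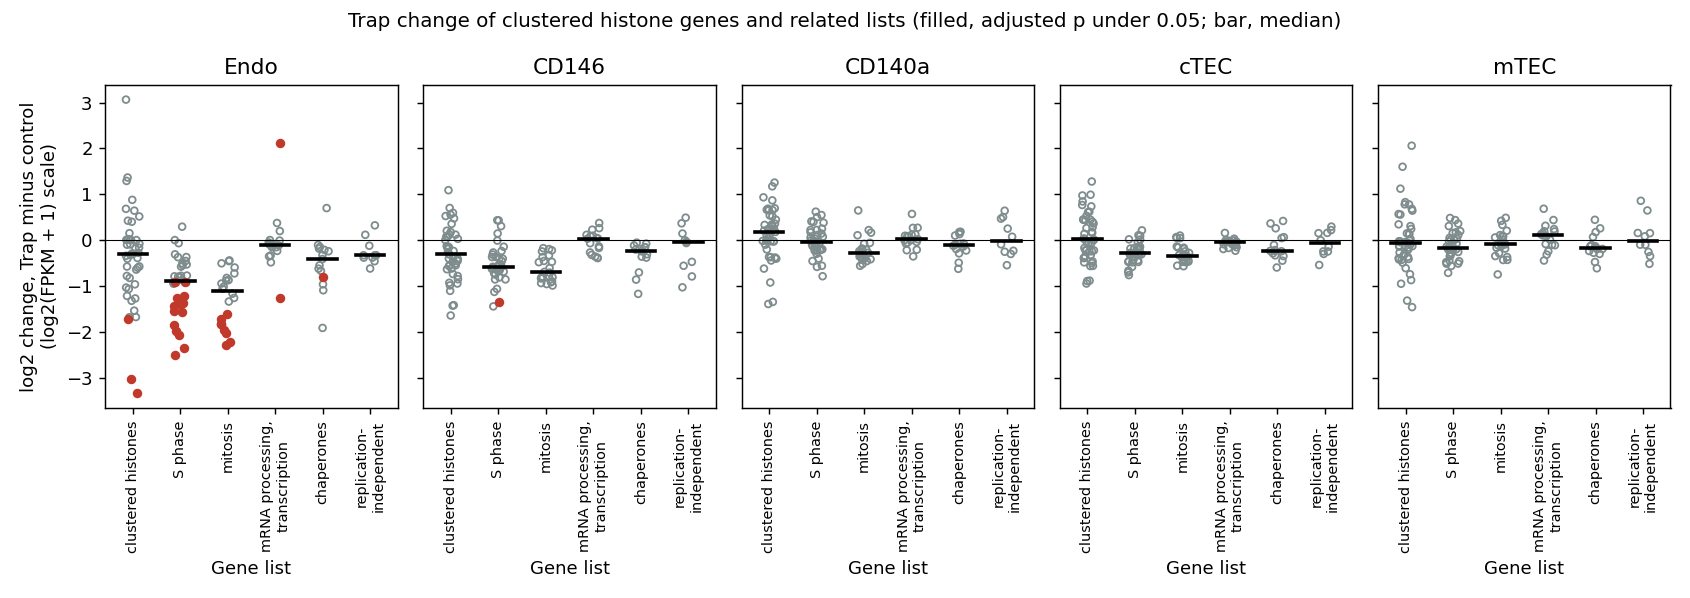
Log2 change with Trap (Trap minus control on the log2(FPKM + 1) scale, y axis) of each tested gene of the clustered histones and of 5 related lists (x axis), 1 panel per population; filled points have an adjusted p under 0.05 and black bars are medians. In Endo the S-phase and mitosis medians lie at -0.89 and -1.12 and the clustered histone points spread on both sides of 0 around a median of -0.30.

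Over the 30 libraries, with each group's mean taken off, the genes outside the family whose log2 level was most like that of the summed members were Gm10036 (Pearson r 0.756), the respiratory chain subunit gene Cox6a1 (0.740), the meiotic and mitotic checkpoint gene Trip13 (0.734), Tatdn2 (0.726), the tubulin gene Tubb5 (0.716) and the vesicle tethering gene Trappc1 (0.714). They were the highest of 16380 genes ranked, and the libraries share an unknown depth, so these values are a description. By list, the median r was 0.50 for Epcam, Foxn1 and Krt8 and 0.36 for the mTEC markers Aire, Fezf2, Krt5 and Krt14. It was 0.28 for replication-independent histone genes, 0.18 for mitosis genes, -0.022 for S-phase genes and -0.0047 over all genes. The remaining lists lay between -0.11 and 0.089.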

How the data were processed

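RNA of sorted cells was amplified (Ovation RNA-Seq System V2 kit) and sequenced as paired reads, and mRNA enrichment is named as a step, per the labels' protocols. How far these steps keep mRNAs without a poly(A) tail was not tested. The authors deposited 1 table of FPKM values, and the submitters' processing notes name bcl2fastq 2.17, STAR, DESeq2 and the GRCm38 and mm10 builds. Which annotation and counting rule were used, and how reads that fit several genes were treated, is not given in the sources used here. FPKM keeps no depth, and whole reads could not be recovered.

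Values were tested as log2(FPKM + 1) with limma 3.58.1 in R 4.3.3. The fit had 10 group means over 30 libraries and a mean-variance trend, and 16425 genes with at least 1 FPKM in at least 2 libraries entered it. Tests were two-sided with Benjamini-Hochberg adjustment over all of them, at 0.05. Fold changes on this scale understate the change of low genes. Class sums are sums of FPKM and were not tested. Sequences were read from GENCODE M21 and RefSeq tables. Pandas 2.3.3 in Python 3.11.15 made the sums.

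Members, gene lists and tests were chosen with earlier results of these data known. Named genes were the 3 highest members of each class, members called with Trap, otherwise the 2 of smallest p, the 2 called members of largest change in each direction per population, up to 4 genes of each related list by p in Endo, and the 6 genes most like the summed members. Hist1h1d, Hist1h1a, Hist1h3c, H2afv, Npat and members named for an extreme or non-overlapping value were added after their values were seen. Alternatives were a pseudocount of 0.1, no filter, TPM, quantile normalization, 1 weight per population, summed near-identical copies, each library left out, a fit on each population alone and a replicate block.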

Additional observations from a re-analysis of the deposited data

Results flagged for a closer look

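Among groups of 4 Trap libraries, 157 sets of values (class sums and named members) were examined for a library that stands far from the other 3, and 21 were found, by a gap to the nearest library above Dixon's critical value. Chance picks about 1 in 20 groups, and many of these sets hold values of 0.

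Endo Trap replicate 2 was highest in the H2B sum (50.2 FPKM, others 18.6 to 21.8), the H3 sum (64.3, others 7.44 to 11.6), Hist1h2bf (33.6, others 0 to 5.52) and Hist1h3e (6.49, others 0.49 to 1.51). Epithelial genes were also highest in that library, and their part was not tested. CD146 Trap replicate 2 was highest in the H4 sum (28.0 FPKM, others 12.9 to 13.9), Hist1h4k (16.4, others 0.76 to 2.60) and Hist1h4c (2.55, others 0.42 to 0.51).

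Endo Trap replicate 1 was highest in Hist1h2bn (7.0 FPKM, others 0 to 0.62), Hist1h1t (0.12), Hist1h3a (0.61) and Hist1h4j (0.09), the last 3 being listed at 0 in the others. Hist1h2bj had 0.59 FPKM in Endo Trap replicate 4 and Hist1h4f 0.28 FPKM in replicate 3, with 0 in the others.

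Hist1h1t had 4.44 FPKM in CD140a Trap replicate 1 (others 0 to 0.26) and 0.69 FPKM in mTEC Trap replicate 4 (others 0). Hist1h4f had 2.93 FPKM in CD140a Trap replicate 4 (others 0), Hist1h4j was at 0 in CD140a Trap replicate 2 (others 0.09 to 0.10), and Hist1h4j had 1.75 FPKM in mTEC Trap replicate 1 (others 0 to 0.28). Hist1h2bb was lowest in CD146 Trap replicate 1, at 0.62 FPKM (others 2.30 to 2.44). Hist1h3e had 8.53 FPKM in cTEC Trap replicate 3 (others 3.16 to 3.94) and Hist2h2be 7.97 FPKM in cTEC Trap replicate 2 (others 4.58 to 5.11).

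The Trap change of Hist1h2bj in Endo differed from that in the other 4 populations by -3.18 on the log2 scale (limma, adjusted p 0.0188), which the limits given with that result also concern.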

How the results depend on the processing

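The count of members called with Trap in Endo (3) was 0 with 1 weight per population and 0 in a fit on the 6 Endo libraries, and spanned 0 to 4 with each library left out. The S-phase and mitosis counts (14 and 8) were 0 and 1 with 1 weight per population and 0 and 0 on the 6 libraries, the mitosis count was 5 with quantile normalization, and they spanned 2 to 16 and 1 to 9 with a library left out. Summing copies left 25 groups in place of the 47 members, so counts with copies summed have a smaller base. The share of all genes called under each alternative is not given beside these counts. In Endo against the other populations, 12 members became 6 with population weights and 7 with copies summed. In CD146, 8 became 4 with a pseudocount of 0.1, on TPM and with copies summed, and in CD140a 7 became 4 on TPM. In cTEC 16 and in mTEC 17 became 9 each with copies summed. With a library left out they spanned 8 to 14 in Endo, 5 to 8 in CD146, 5 to 10 in CD140a, 7 to 18 in cTEC and 9 to 21 in mTEC. The difference of the Endo change from the others called 1 member, 0 with a pseudocount of 0.1, on TPM, with population weights or copies summed, and 0 to 3 with a library left out. Log2 ratios of H2B sums without near-identical members were -0.37 in Endo, -0.55 in CD140a and -0.64 in cTEC, where the main values were -1.24, 0.19 and -0.18, and that of all members in CD140a was 0.52 against 0.23. In Endo and CD140a these H2B sums held Hist2h2be alone, as Hist3h2ba was listed at 0 there. With a library left out, H2B sums ranged from -0.58 to 0.40 in cTEC and from -0.41 to 0.53 in mTEC, and totals from -0.42 to 0.39 and from -0.32 to 0.53. The cause of these moves was not tested.

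Among changes that were not called, the sign turned for Hist1h4j in cTEC (-0.32, copies summed), and in Endo for Hist1h1e (-0.051 with a pseudocount of 0.1, -0.12 with the replicate block), Hist1h3e (-0.25, copies summed) and Hist3h2a (0.10, quantile normalization). With a library left out Hist1h1e spanned -0.43 to 0.47, Hist1h2ac -1.06 to 0.48, Hist1h2bf -1.15 to 0.56, Hist1h3e -0.10 to 0.68 and Hist3h2a -0.85 to 0.69.

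Whether equal replicate numbers pair libraries was not settled, and the main fit treated libraries as unpaired. Of 10 same-number pairs of a control and a Trap library 0 correlated above 0.1 after group means were taken off. Of same-number pairs between populations 1 of 40 Trap and 0 of 20 control pairs did. The median r of Trap pairs between populations was 0.022 for equal numbers and -0.0076 for different numbers. For control pairs between populations it was 0.032 and -0.032. With 2 controls per group, these values mirror each other by construction. With the replicate block 2 members were called in Endo. The FPKM files give no depth, which limits every member near 0.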
